A study of Mus musculus with 768 samples.

Results

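Thymocytes of the DN1 gate were compared between 2 mouse lines that lose Tcf7 by different routes. One library held cells of Vav-cre; Tcf7fl/fl mice, in which a recombinase active in blood cells deletes the floxed gene. The other held cells of Tcf7-/- mice, which carry the deletion in the germline and hence in every tissue. Members were the cells of these libraries with at least 1000 detected genes, 58 of 96 Vav-cre and 96 of 96 Tcf7-/- cells, or 154 of the 675 such cells among the 768 of the series. All mice were C57BL/6 and 6 to 8 weeks old. Cells of both libraries were sorted from the thymus as CD45+ and negative for lineage markers, CD4, CD8 and CD25, but positive for CD44.

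The other 6 plates of 96 cells held wild-type (WT) DN1 cells and CD25+ (DN2-3) cells of WT, Tcf7-/-, Vav-cre; Tcf7fl/fl and, on 2 plates, Lck-cre; Tcf7fl/fl mice, whose recombinase acts in T-cell precursors. Each combination of genotype and gate other than Lck-cre was 1 library, and the labels name no animals. Cells of 1 library are not replicates of a genotype, so no comparison below carries a p-value. Intervals are exact 95% intervals of counting error. They hold no spread between mice, and molecules copied by PCR are not independent.

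TCF1, the protein that Tcf7 encodes, is a DNA-binding factor of the TCF/LEF family that is switched on by Notch signals in the earliest thymic progenitors and supports commitment to the T-cell lineage. It also takes part in the development of innate lymphoid cells (ILCs) and natural killer (NK) cells. The DN1 gate is known to be mixed. Beside early progenitors it can take in NK cells, ILCs, dendritic cells and B cells that lack the lineage markers used.

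The libraries differed in depth. Vav-cre DN1 cells held between 2049 and 147481 counts, with a median of 19293 and a library total of 1547512, and the median cell had 1892 detected genes. Tcf7-/- DN1 cells held between 2796 and 270481 counts, with a median of 37088.5 and a total of 4159404, and the median cell had 3132 detected genes. A count of 0, read as at most 3 counts, allowed up to 1.94 CPM (counts scaled by the library total) in the Vav-cre library and up to 0.721 CPM in the Tcf7-/- library. Cell barcodes 1 to 96 were used again on every plate, and all 58 kept Vav-cre DN1 barcodes have a namesake in the Tcf7-/- DN1 library.

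The libraries were also labelled differently. Both Tcf7-/- plates are described as polyA RNA and list only mm10 as their genome, while the other plates are described as total RNA and list GRCm38 as well. Xist, which the inactive X chromosome of females expresses, had 375 CPM in the Vav-cre DN1 and 16.6 CPM in the Tcf7-/- DN1 library. Eif2s3y, a gene of the Y chromosome, had 0 counts in the Vav-cre DN1 and 176 CPM in the Tcf7-/- DN1 library, at least 90.8-fold more with the 0 set to that floor of 3 counts. Germline deletion, the sex these genes point to and the labelling of the plates therefore cannot be told apart in this comparison.

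Tcf7 itself was counted higher in the library labelled Vav-cre DN1 than in that labelled Tcf7-/- DN1. The gene (chr11:52252371-52283014 on the minus strand of mm10, protein-coding) had 368 CPM in the library labelled Vav-cre DN1 (interval 339 to 400.0) and 98.6 CPM in the library labelled Tcf7-/- DN1 (89.3 to 109), a log2 ratio of 1.80. The WT DN1 library had 134 CPM, so the Vav-cre library was above both. A count was present in 35 of 58 Vav-cre cells (60.3%, 46.6% to 73%) and in 81 of 96 Tcf7-/- cells (84.4%, 75.5% to 91%), with a median of 2 counts in each. More than 5 counts were held by 22 Vav-cre cells (37.9%) and 20 Tcf7-/- cells (20.8%), and the highest cells held 87 and 34. Barcodes were used again on every plate, and the part of reads assigned to a wrong plate in these counts was not tested. With each cell of at least 10000 counts thinned to 10000, the share with a count was 65.3% in 49 Vav-cre cells and 47.9% in 73 Tcf7-/- cells. In the DN2-3 gate the Vav-cre library had 964 CPM beside 862 CPM in WT and 122 CPM in Tcf7-/-. Counts over a whole gene do not show whether an exon is missing, so these values do not check the deletion itself, and "library labelled Vav-cre" is meant wherever the name Vav-cre is used. Lef1, which encodes the related factor LEF1, was counted at 84 CPM in the Vav-cre and 54.6 CPM in the Tcf7-/- library of the DN1 gate, a log2 ratio of 0.54.

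Across genes the DN1 libraries lay far apart. Of 8996 genes measured (at least 10 CPM in either library), 1239 (13.8%) were at least 2-fold higher and 1040 (11.6%) at least 2-fold lower in Vav-cre DN1, on a log2 scale with a pseudocount of 10 CPM. Without the cell with the most counts of each gene in each library, 575 of 7568 measured genes were higher and 1334 lower. The median log2 ratio of all genes was then -0.20 in place of 0.05. The Vav-cre and Tcf7-/- libraries of the DN2-3 gate were closer, with 665 of 8024 genes (8.29%) higher and 420 (5.23%) lower. The Lck-cre plates, the only pair of libraries of one genotype and gate, had 224 of 8004 genes (2.8%) higher and 207 (2.59%) lower. Among genes of at least 50 CPM the median absolute log2 ratio was 0.51 in DN1, 0.40 in DN2-3 and 0.25 between the Lck-cre plates. The Lck-cre plates differ from the DN1 libraries in cell types and depth, so they are a yardstick for plates and not for mice.

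The makeup of the cells differed between the libraries. After clustering of all 675 kept cells, 40 of 58 Vav-cre DN1 cells (69%, 55.5% to 80.5%) and 30 of 96 Tcf7-/- DN1 cells (31.2%, 22.2% to 41.5%) fell in an ILC-like cluster. That cluster was named from 9 raised markers, among them Rora, Il7r, Icos, Cxcr6, Ltb and Il23r. NK-like cells were 7 of 58 (12.1%, 4.99% to 23.3%) in Vav-cre DN1 and 24 of 96 (25%, 16.7% to 34.9%) in Tcf7-/- DN1. Early progenitor-like cells were 5 of 58 (8.62%, 2.86% to 19%) and 17 of 96 (17.7%, 10.7% to 26.8%). The 5 Vav-cre cells include 2, barcodes 38 and 65, that carry genes of dendritic cells. At Leiden resolution 2 the NK-like shares were 8.62% and 10.4%, so their difference depended on the clustering. In WT DN1, 72 of 86 cells were NK-like and 7 ILC-like at resolution 1. WT levels given here therefore come from another mix of cells. Another 23 Tcf7-/- cells fell in clusters without a name. Their median was 5506 counts, so shallow cells make up much of what was left unnamed in that library, and 4 Vav-cre cells with a median of 9269.5 counts stayed unnamed too.

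The ILC-like difference did not rest on clustering alone. When each cell of at least 10000 counts was named from its own markers, ILC-like cells were 35 of 49 (71.4%) in Vav-cre DN1 and 24 of 73 (32.9%) in Tcf7-/- DN1. NK-like cells were then 4 of 49 (8.16%) and 20 of 73 (27.4%), and early progenitor-like cells 2 of 49 (4.08%) and 13 of 73 (17.8%). A B-like cluster held 2 Vav-cre cells and 1 Tcf7-/- cell. Its leading genes include 4 dendritic markers beside 3 of B cells, so it is not compared between the libraries.

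Within the ILC-like cells several genes of ILCs were at similar levels in both libraries. Id2, an inhibitor of E proteins that ILCs need, had 3724 CPM in the 40 Vav-cre cells and 4337 CPM in the 30 Tcf7-/- cells, a log2 ratio of -0.22. Ltb, which encodes lymphotoxin beta, had 683 and 605 CPM (0.17). The interleukin-23 receptor gene Il23r, the chemokine receptor gene Cxcr5, the kinase gene Blk and the factor gene Maf had log2 ratios between -0.20 and 0.09. These genes helped to define the cluster or go along with it, so their likeness is a description of the class and not a finding.

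Other receptor genes of the same cells lay further apart. Il7r, the interleukin-7 receptor alpha chain on which ILCs and progenitors depend, had 4448 CPM in Vav-cre and 2179 CPM in Tcf7-/- ILC-like cells, a log2 ratio of 1.03. Ccr6, a chemokine receptor of the lymphoid tissue inducer type of ILC, had 1234 and 592 CPM (1.05), and Il18r1, an interleukin-18 receptor chain, had 590 and 308 CPM (0.91). Lower in Vav-cre ILC-like cells were Cd3e, a subunit of the T-cell receptor complex, with 56.1 and 184 CPM (-1.55), and Lck, the kinase that signals for that receptor, with 235 and 507 CPM (-1.07). Il17f, which encodes a cytokine of type 3 cells, had 33.5 and 134 CPM (-1.73). Cd163l1, a marker of gamma-delta T cells that make interleukin-17, had 680.2 and 1325 CPM (-0.95). T-cell receptor constant genes are not analysed here, so gamma-delta T cells within the ILC-like cells cannot be separated out.

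Across all 8591 genes measured in the ILC-like cells, 1576 (18.3%) were at least 2-fold higher and 1400 (16.3%) at least 2-fold lower in Vav-cre. These shares are above those of the whole libraries, and they rest on fewer counts, 926200 in 40 cells and 1272547 in 30 cells. In the list of ILC genes 29 were measured, 2 of them higher and 5 lower, with a median of -0.20 beside 0.02 for all genes. Of 29 T-lineage genes 1 was higher and 9 were lower (median -0.70). Of 14 Wnt and TCF/LEF genes 4 were higher and 3 lower (median -0.59). Tcf7 was among the higher ones, with 550 and 116 CPM and a log2 ratio of 2.15.

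Within the same class, genes of other lineages went both ways. Of 16 conventional dendritic genes 9 were higher and 1 lower in Vav-cre (median 1.23), and 7 of 12 myeloid genes were higher with 0 lower (median 1.13). Ccr7, Fscn1, Ccl22 and Cacnb3 were among the higher dendritic genes. The Vav-cre cell with barcode 26, placed in this class, held 692, 209, 117 and 142 counts of them. The dendritic list therefore rested in part on 1 cell. NK and cytotoxic genes were split, 5 of 21 higher and 7 lower, at a median of -0.63. The genes furthest lower included some of these. The granzyme genes of cytotoxic cells had log2 ratios of -3.60 (Gzma) and -3.69 (Gzmb), and Ly6d, a surface protein of lymphoid progenitors, of -3.92. Gzma had a count in 12 of 40 Vav-cre ILC-like cells and in 30 of 30 Tcf7-/- ILC-like cells, where the median was 7.5 counts. In Tcf7-/- DN1 as a whole all 96 cells held Gzma, with a median of 8 counts. In the 17 Tcf7-/- progenitor-like cells the median was 5 counts and the highest 117, with more than 5 counts in 8 cells. Counts of Gzma were thus present in every Tcf7-/- DN1 cell, whatever its class. The source of these counts was not tested. Runx1, which encodes a transcription factor of blood and T cells, had a log2 ratio of -2.98. Among the genes furthest higher, Usp9x (2.49), which encodes a deubiquitinase, and Ptpn2 (1.83), which encodes a tyrosine phosphatase, stood beside Cdkn1b (1.91), which encodes the cell-cycle inhibitor p27.

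**Figure D1:**
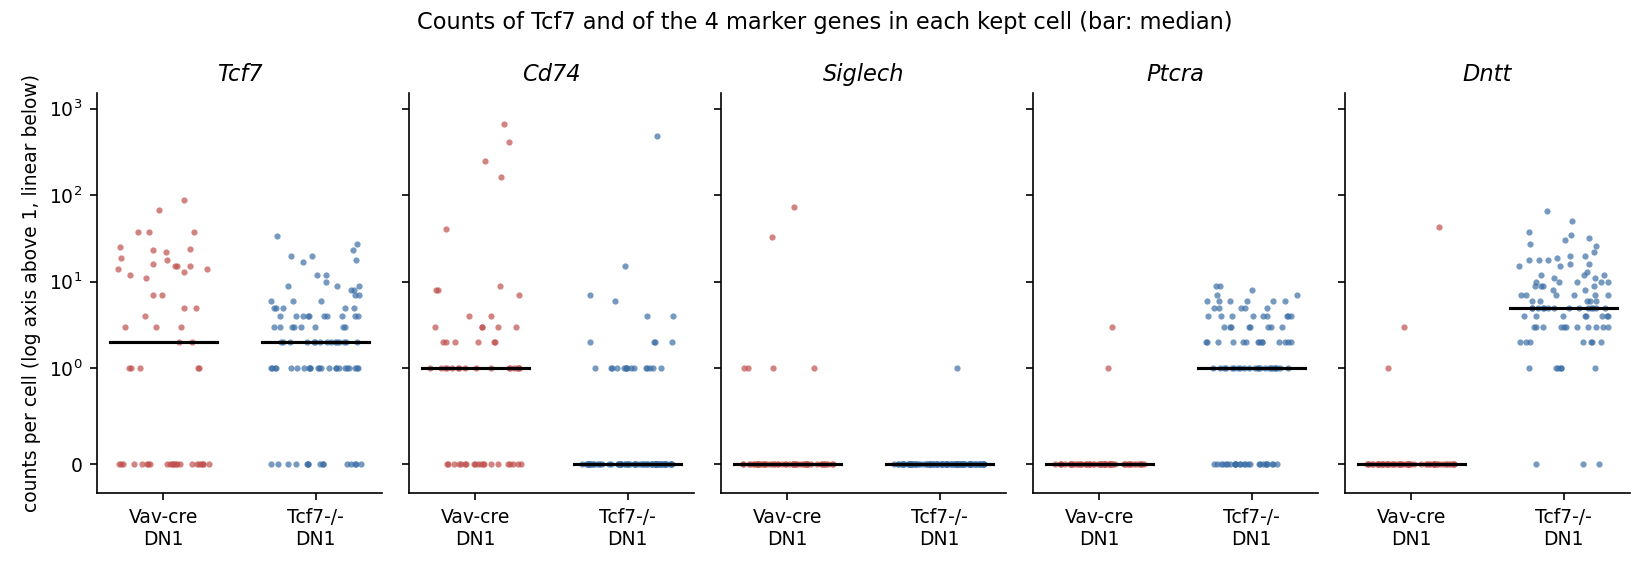
Counts of Tcf7, Cd74, Siglech, Ptcra and Dntt in each kept cell of the Vav-cre DN1 (58 cells) and Tcf7-/- DN1 (96 cells) libraries, on an axis that is linear below 1 and logarithmic above. Points are cells and bars are medians. Cd74 and Siglech reach high counts in a few Vav-cre cells. Ptcra and Dntt are counted in most Tcf7-/- cells, at medians of 1 and 5 counts and up to 9 and 65.

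The genes of antigen presentation are where the Vav-cre library stood higher. Dendritic cells and B cells load peptides on MHC class II molecules, whose alpha and beta chains are encoded by H2-Aa, H2-Ab1 and H2-Eb1. Cd74 encodes the invariant chain that guards the binding groove, H2-DMb1 encodes part of the peptide exchanger, and Ciita encodes the activator of these genes. Promoters of MHC class II chain genes share a short module just before the start, of which one element is a CCAAT box read in reverse. The 150 bases before the start are shown for 3 genes, taken from those that hold the box and whose levels differed (RefSeq, GRCm38.p6, 5′ to 3′ on the strand of the gene). The box, GATTGG or its reverse complement CCAATC, is in capitals.
H2-Aa: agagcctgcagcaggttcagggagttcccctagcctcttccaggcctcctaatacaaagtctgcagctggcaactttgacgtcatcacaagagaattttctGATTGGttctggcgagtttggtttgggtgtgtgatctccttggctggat
H2-Eb1: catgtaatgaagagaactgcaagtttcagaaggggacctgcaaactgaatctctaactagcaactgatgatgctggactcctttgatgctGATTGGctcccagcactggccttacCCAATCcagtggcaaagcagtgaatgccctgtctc
H2-DMb1: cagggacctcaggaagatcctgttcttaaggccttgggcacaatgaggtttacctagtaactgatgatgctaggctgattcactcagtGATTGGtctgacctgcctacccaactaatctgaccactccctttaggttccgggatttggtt
They lie at chr17:34287824-34287973 (minus strand), chr17:34305717-34305866 (plus) and chr17:34153041-34153190 (plus), and the first box begins 49, 60 and 62 bases before the start. H2-Eb1 holds 2 boxes. Searched on both strands, the box was present in 6 of the 11 members of the list of 14 that have a promoter in the table. It was present in 3595 of all 32851 promoters of this length (10.9%). List members were counted by gene, with a box in any promoter of the gene, and the rest by promoter. These shares are therefore in unlike units. A match describes the letters in this window and is not evidence of binding.

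Of the 14 measured MHC class II genes 8 were at least 2-fold higher in Vav-cre DN1 and 0 lower. Over all genes 13.8% were higher and 11.6% lower. The median log2 ratio of the list was 1.26, beside 0.05 for all genes. Cd74 had 1051 CPM in Vav-cre and 130 CPM in Tcf7-/- DN1, H2-Aa 496 and 83.2 CPM, H2-Ab1 540 and 111 CPM, and H2-Eb1 233 and 97.6 CPM. Their log2 ratios were 2.93, 2.44, 2.19 and 1.18. H2-DMb1 had 160.3 and 11.1 CPM (3.02), with 94.8% of its Vav-cre counts in 1 cell. Ciita was at low levels in both libraries, 3.23 and 10.6 CPM (-0.64).

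Almost all of these transcripts lay in a handful of cells in both libraries. Summed over Cd74, H2-Aa, H2-Ab1 and H2-Eb1, Vav-cre DN1 held 3590 counts (2320 CPM) and Tcf7-/- DN1 1752 counts (421 CPM). The WT DN1 library, with 1843 CPM, was nearer to Vav-cre. There too a few cells held most counts, 55.8% in 1 cell and 92.1% in the top 3. Cells above 1000 CPM numbered 6 of 58 in Vav-cre and 5 of 96 in Tcf7-/-, and they held 95.9% and 88.3% of the counts. The other cells had 122 CPM in Vav-cre, 51 CPM in Tcf7-/- and 102 CPM in WT DN1.

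The Vav-cre cells with the most counts were of several kinds. The cell with barcode 38 held 1833 counts, or 51.1% of the library's, with 673 counts of Cd209a and 907 of Cd209d, which encode lectins of the DC-SIGN family. It also held 372 counts of Tcf4, the defining factor of plasmacytoid dendritic cells, 104 of Csf1r and 1118 of Tyrobp, genes of myeloid cells. Barcodes 88 and 2 held 720 and 628 counts together with the B-cell genes Cd79a (170 and 19 counts), Cd79b (69 and 82) and Ms4a1 (93 and 78). Barcode 26 held 178 counts together with Ccr7 (692), Fscn1 (209) and Ccl22 (117), genes of mature migrating dendritic cells, yet it was placed in the ILC-like cluster. In Tcf7-/- DN1 a single B-like cell, barcode 67, held 1452 counts (82.9%), with 535 of Cd79a and 207 of Ms4a1. Without the 5 Vav-cre cells with the most counts, namely barcodes 38, 88, 2, 26 and 96, and without the Tcf7-/- cell 67, the median of the 11 MHC class II genes still measured was -0.05, with 2 higher and 3 lower. These cells were picked by counts of the same genes, and Tcf7-/- cells above 1000 CPM other than barcode 67 stayed in. The fall of the median is fixed by this choice and is no result.

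**Figure D2:**
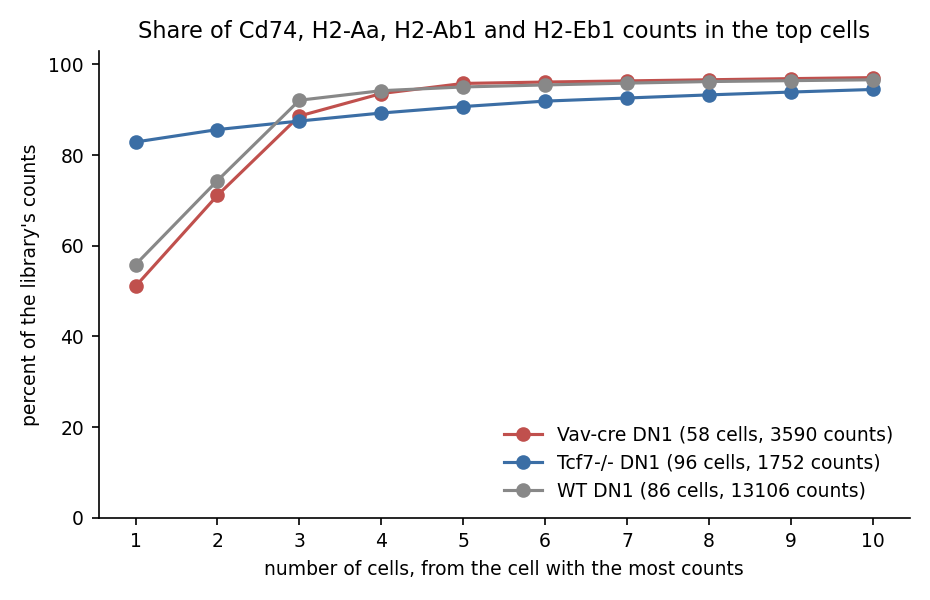
Cumulative share of the summed Cd74, H2-Aa, H2-Ab1 and H2-Eb1 counts held by the 1 to 10 cells with the most counts in the Vav-cre, Tcf7-/- and WT DN1 libraries. The top 3 cells hold 88.6% of the counts in Vav-cre DN1, and the top cell alone holds 82.9% in Tcf7-/- DN1.

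Cd74 differed also below these cells. A count was present in 38 of 58 Vav-cre (65.5%, 51.9% to 77.5%) and 25 of 96 Tcf7-/- cells (26%, 17.6% to 36%), or 46.9% and 13.7% after thinning to equal depth. Without the 6 cells the log2 ratio of Cd74 was 1.68. Most of these cells held 1 to 5 counts: only 9 Vav-cre and 4 Tcf7-/- cells held more than 5. In NK-like cells, which carry little of this chain, 5 of 7 Vav-cre and 5 of 24 Tcf7-/- cells had a count, with median depths of 21091 and 40471 counts. In ILC-like cells a count was present in 57.5% and 30%, with medians of 1 and 0. The part of free RNA in these low counts was not tested.

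Siglech, a lectin of plasmacytoid dendritic cells (chr7:55768178-55778925, plus strand), had 111 counts in Vav-cre DN1 (71.7 CPM) and 1 count in Tcf7-/- DN1 (0.24 CPM). The ratio of the libraries has an interval of 52.5 to 1.19e+04 with that single count. Vav-cre cells with a count numbered 6 of 58, and 74 of the counts lay in barcode 65 and 33 in barcode 38. Barcode 65, with 10536 counts in all, also held 67 counts of Irf8, 31 of Tcf4 and 27 of Ccr9, further genes of plasmacytoid dendritic cells. The 1 Tcf7-/- count lay in an ILC-like cell. Of 12 plasmacytoid genes measured 6 were higher and 1 lower (median 0.99), beside 13.8% and 11.6% of all genes. The higher ones include Ccr9 with 187 and 48.6 CPM (1.75) and Tcf4 with 398 and 96.2 CPM (1.94). Irf8 was at similar levels, 112 and 96.7 CPM (0.19).

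Conventional dendritic and myeloid lists went the same way. Of 21 conventional dendritic genes 10 were higher and 0 lower (median 0.81), and of 15 myeloid genes 10 were higher and 1 lower (median 1.17). Over all genes 13.8% were higher and 11.6% lower. In Vav-cre DN1 a single cell had 97.6% of all Cd209d counts, another 90.6% of those of Ccr7, and one 92.9% of those of Csf1r. Without the top cell of each gene the conventional dendritic list had 3 higher and 3 lower of 15 (median 0.18, beside -0.20 for all genes). S100a8, which encodes a calcium-binding protein of neutrophils, was spread differently. It had 85.3 CPM in Vav-cre and 2.64 CPM in Tcf7-/- DN1 (log2 ratio 2.91), with a count in 32 of 58 and 5 of 96 cells and a median of 1 count in Vav-cre. Vav-cre ILC-like, NK-like and progenitor-like cells held it at 52.5%, 57.1% and 60%. Only 5 Vav-cre cells held more than 5 counts, so S100a8 was at low counts across classes in this library.

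Of 26 NK and cytotoxic genes 10 were lower and 3 higher in Vav-cre DN1 (median -0.59), beside 11.6% and 13.8% of all genes. Nkg7, a granule protein, had 808 and 1785 CPM (-1.13), Gzmb 185 and 701 CPM (-1.87) and Klrd1, an NK receptor chain, 295 and 444 CPM (-0.58). Gzma had 685 and 1545 CPM (-1.16), but 1 NK-like cell held 91.1% of the Vav-cre counts, and without the top cell of each library the log2 ratio was -4.12. Ccl5, a chemokine, had a log2 ratio of -0.13.

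Progenitor genes had no common direction. The list had 19 measured members, 3 of them higher and 4 lower, beside 13.8% and 11.6% of all genes, and a median of 0.16. Leaving out the top cell of each gene gave -0.67, beside -0.20 for all genes. Cd34, a surface protein of stem and progenitor cells, had 38.8 and 126 CPM (-1.48), with a count in 4 of 58 Vav-cre and 24 of 96 Tcf7-/- cells. Sox4, a factor of early lymphocytes, had 5.82 and 92.6 CPM (-2.70), Mpo, the granule enzyme of myeloid progenitors, 20.03 and 135 CPM (-2.27), and Cpa3, a protease of mast cells and progenitors, 38.1 and 415 CPM (-3.14). Kit, the stem cell factor receptor, went the other way with 129.9 and 76.2 CPM (0.70).

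G2 and M phase genes of dividing cells were lower in Vav-cre DN1, and this rested largely on 1 cell of the other library. Of 22 measured G2 and M phase genes 19 were lower and 0 higher (median -1.77). A single progenitor-like Tcf7-/- cell, barcode 89 with 270481 counts, held 4312 of these counts, or 80.8%. Without it 9 genes were measured, of which 3 were lower and 1 higher (median -0.78). Of 21 S phase genes 2 were lower and 1 higher (median -0.32), no larger a part than the 11.6% of all genes that were lower.

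**Figure D3:**
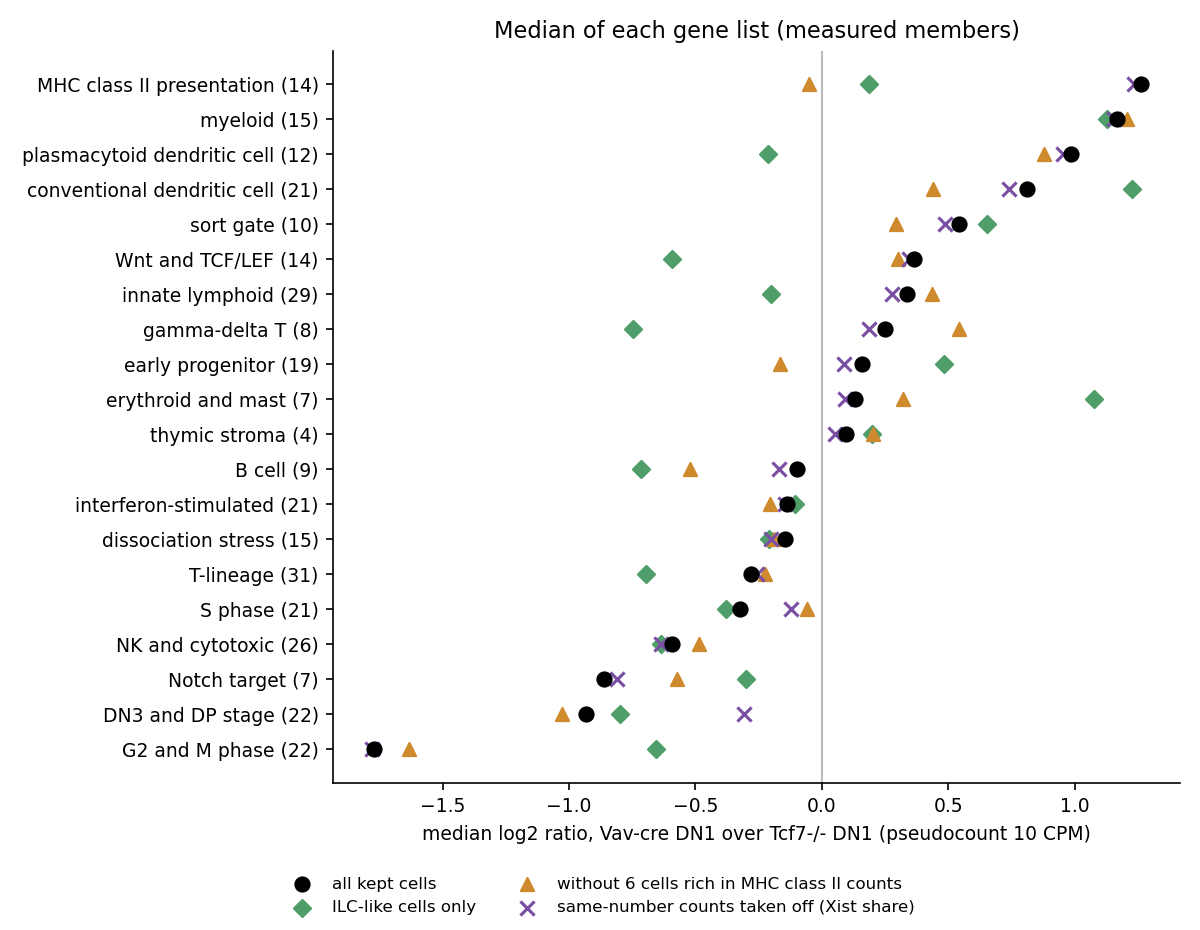
Median log2 ratio of Vav-cre over Tcf7-/- DN1 for each gene list, with the number of members measured in all kept cells in brackets. Circles are all kept cells, diamonds ILC-like cells, triangles the cells left without the 6 richest in MHC class II counts, and crosses all cells after part of the same-number counts was taken off; the MHC class II median of 1.26 lies at -0.05 without those 6 cells, and the DN3 and DP stage median of -0.93 at -0.31 with the counts taken off.

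Genes of the later DN3 and DP stages were higher in the Tcf7-/- library. At the DN3 stage thymocytes rearrange the T-cell receptor beta gene and test it with the pre-T alpha chain, which Ptcra encodes. Dntt encodes terminal transferase, which adds nucleotides at the junctions, and Rag1 encodes part of the recombinase. Of 22 measured genes of these stages 11 were at least 2-fold lower and 3 higher in Vav-cre DN1 (median -0.93). With counts of 1 to 5 set to 0 the median of the list was -0.16, so that median rested on low counts. Not every member did. More than 5 counts of Dntt were held by 47 of 96 Tcf7-/- and 1 of 58 Vav-cre cells. For Ly6d these were 60 and 3 cells, and for Ptcra 11 and 0.

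Ptcra (chr17:46755663-46763712, minus strand) had 2.58 CPM in Vav-cre (4 counts, 0.704 to 6.62 CPM) and 51 CPM in Tcf7-/- DN1 (44.3 to 58.3), a log2 ratio of -2.28. With a pseudocount of 50 CPM the log2 ratio was -0.94, under 2-fold. The WT DN1 library had 1.12 CPM, so the Tcf7-/- library is the one that stood apart. A count was present in 2 of 58 Vav-cre cells (3.45%) and in 70 of 96 Tcf7-/- cells (72.9%), and in 0 of 49 and 28.8% of 73 cells after thinning. The Tcf7-/- counts were low: the median was 1 and the highest 9. They were found in 70% of ILC-like, 70.8% of NK-like and 70.6% of progenitor-like cells and in 82.6% of unnamed cells, so no class stood apart in its share. Scaled to depth the classes differed, with 20.9 CPM in progenitor-like, 44.9 CPM in NK-like, 53.4 CPM in ILC-like and 421 CPM in unnamed cells.

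Dntt (chr19:41029275-41059525, plus strand) had 30.4 CPM in Vav-cre and 217 CPM in Tcf7-/- DN1, a log2 ratio of -2.49. The gene was counted in 3 of 58 Vav-cre cells, of which 1 progenitor-like cell held 43 counts (91.5%). In Tcf7-/- DN1 it was counted in 93 of 96 cells, with a median of 5 and a highest count of 65. In median counts, which are not scaled to depth, Dntt differed more between these classes than Ptcra, which had medians of 1 or 2. All 17 Tcf7-/- progenitor-like cells held Dntt at a median of 22 counts, while ILC-like, NK-like and unnamed cells had medians of 4.5, 5 and 5. NK cells do not use this enzyme, yet 22 of 24 NK-like cells held a count. Scaled to depth, progenitor-like cells had 272 CPM of Dntt, NK-like cells 160 CPM and ILC-like cells 128 CPM. The 23 unnamed cells, with a median depth of 5506 counts, had 897 CPM. Over the same classes Ptcra ranged from 20.9 to 421 CPM.

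Further genes of the list and of T-cell progenitors followed this pattern. Rag1 had 0 counts in Vav-cre and 43 counts (10.3 CPM) in Tcf7-/- DN1, at least 5.33-fold more at the floor of 3 counts. Ly6d had 82.1 and 224 CPM (-1.35), with a count in 8 of 58 and 94 of 96 cells. Most Vav-cre counts of Ly6d lay in the 2 B-like cells, at a median of 57 counts, and ILC-like cells had 5.40 CPM in Vav-cre and 223 CPM in Tcf7-/-. Arpp21, a phosphoprotein gene expressed in thymocytes, had 16.8 and 168 CPM (-2.73), with a count in 3 of 58 and 91 of 96 cells. Il2ra, which encodes the CD25 that the gate excludes, went the other way with 169 and 60.6 CPM (1.34). It was counted in 21 of 58 Vav-cre and 70 of 96 Tcf7-/- cells, and 1 Vav-cre cell held 37.9% of its counts.

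Low counts of some genes in Tcf7-/- DN1 went along with the well of the same barcode number on another plate. Over 96 wells, Ptcra counts in Tcf7-/- DN1 and in the same number of Tcf7-/- DN2-3 had a Spearman correlation of 0.49 and a Pearson correlation of 0.47. In Vav-cre these correlations were 0.09 and -0.02. For Dntt they were 0.25 and 0.17 in Tcf7-/-, and -0.03 and -0.08 in Vav-cre. The Spearman correlation of Tcf7-/- was 0.43 for Cd8b1, which encodes a CD8 chain, but 0.16 for Il2ra and 0.08 for Rag1. Gzma, with a median of 0.04 over the 7 other plates, reached 0.39 with Vav-cre DN2-3. The 4 Ptcra counts of Vav-cre DN1 had a Spearman correlation of 0.39 with the 8 counts of WT DN1. Wells of 1 number share that number and differ in depth, and the correlations are descriptions.

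Klra9, an NK receptor gene chosen for this after its counts were seen, had the highest Spearman correlation of the genes looked at. Its counts in Tcf7-/- DN1 and in WT DN1 had a Spearman correlation of 0.66 over the 96 wells, and a Pearson correlation of 0.29. The other plates could not be compared, since they held 7 counts of Klra9 in WT DN2-3, 1 in Tcf7-/- DN2-3 and 0 elsewhere. Klra9 was counted in 36 of 96 Tcf7-/- DN1 cells and in 0 of 58 Vav-cre cells. In Tcf7-/- DN1 it was counted in 43.3% of the ILC-like, 41.2% of the progenitor-like and 25% of the NK-like cells. Of its 116 counts there, 39 lay in 1 NK-like cell and 15 in 1 ILC-like cell. Its ratio to the other plates therefore rests in part on these cells. The counts of Tcf7-/- DN1 came to 1.98% of the sum over the other 7 plates for Ptcra, to 1.40% for Dntt and to 1.21% for Klra9. In Vav-cre DN1 these ratios were 0.0367% for Ptcra, 0.0969% for Dntt and 0 for Klra9. The part of reads assigned to a wrong plate in these counts was not tested.

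Taking such counts off brought the later-stage list and its leading genes nearer to 0. The counts of the same number on the other plates were taken off each Tcf7-/- DN1 well at the share that Xist has there (0.779%) or that Klra9 has (1.21%), a choice made after the data were seen. This removed 5.54% or 8.25% of the library's counts. The DN3 and DP stage median became -0.31 or -0.28, with 6 of 19 genes lower and 3 higher. The log2 ratio of Ptcra became -1.89 or -1.64 and that of Dntt -1.68 or -1.31. Both shares taken off are below the ratios of these genes over the other plates, so a remainder is fixed by the step and is no result. Counts were taken off Tcf7-/- DN1 only. A shift toward 0 of genes with high counts on the DN2-3 plates is therefore fixed by the step as well.

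**Figure D4:**
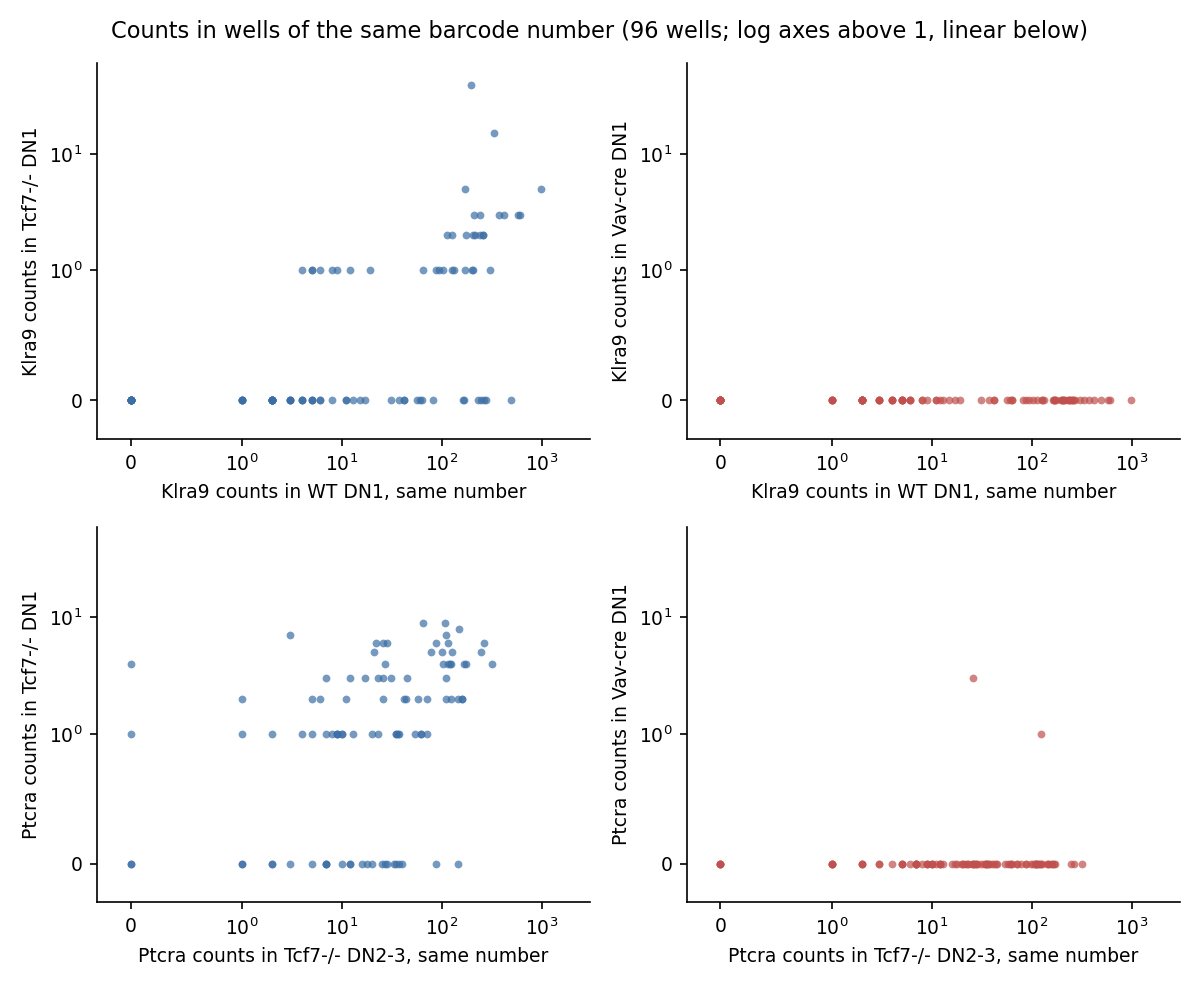
Counts of Klra9 (top) and Ptcra (bottom) in each of 96 wells of Tcf7-/- DN1 (left) and Vav-cre DN1 (right), against the counts in the well of the same barcode number in WT DN1 or Tcf7-/- DN2-3; axes are linear below 1 and logarithmic above. Klra9 counts in Tcf7-/- DN1 rise with those of the same number in WT DN1 (Spearman correlation 0.66), and Vav-cre DN1 has none in any well.

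Some genes set the libraries apart across many cells. They were taken by a rule that asked for a count in at least 30% of the cells of the higher library and for no cell with over 25% of its counts, and 12 were named in each direction. Among the higher, Ccr6 had 749 CPM in Vav-cre and 185 CPM in Tcf7-/- DN1 (1.96), Klf2, a factor of lymphocyte quiescence and migration, 286 and 69.96 CPM (1.89), and Igf1r, a growth factor receptor, 288 and 70.4 CPM (1.89). Stxbp6, a syntaxin-binding protein gene, had 605 and 150 CPM (1.94) and was counted in 55 of 58 and 85 of 96 cells. Ccdc36 (2.28), Olfr1258 (2.24), the chromatin remodeller gene Chd8 (2.16), Usp9x (1.90), the SMAD co-repressor gene Ski (1.78), the ubiquitin ligase gene Ubr2 (1.75), the splicing helicase gene Snrnp200 (1.73) and Tcf7 (1.80) completed the group.

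Among the lower, Cd24a, a surface protein of immature thymocytes and other precursors, had 29.7 CPM in Vav-cre and 359.7 CPM in Tcf7-/- DN1 (-3.22), with a count in 5 of 58 and 83 of 96 cells. Gas5, the host of small nucleolar RNAs, had 110.5 and 813 CPM (-2.77). Zbp1, a sensor of nucleic acids that interferon induces, had 5.17 and 100.5 CPM (-2.86). Churc1 had 2 counts (1.29 CPM) and 102.9 CPM (-3.32), a ratio of 79.6 with an interval of 21.9 to 660. The other 8 were Arpp21, Tmem260, Dntt, the receptor ligand gene Angpt1 (-2.56), the DNA repair gene Xpc (-2.48), the helicase gene Ddx55, the ribosome assembly gene Wdr12 and the mitochondrial enzyme gene Idh2 (-2.33).

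Values of the same genes within ILC-like cells and in the other gate stand beside these. ILC-like cells are among the cells that chose the genes, so their values are a description and no support. Within ILC-like cells 11 of the 12 higher genes and 10 of the 12 lower genes were still at least 2-fold apart, all but Snrnp200 (0.93), Angpt1 (-0.37) and Idh2 (-0.13). In the DN2-3 gate Vav-cre and Tcf7-/- were at least 2-fold apart in the same direction for Tcf7 (2.88) and Churc1 (-3.66), and in the opposite direction for Klf2 (-1.43) and Ddx55 (1.19). Between the Lck-cre plates Gas5 (-2.17) and Tmem260 (-1.58) were more than 2-fold apart in the same direction, so plates of 1 genotype also differed by more than 2-fold in these genes. Churc1 differed the other way between those plates (1.00).

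**Figure D5:**
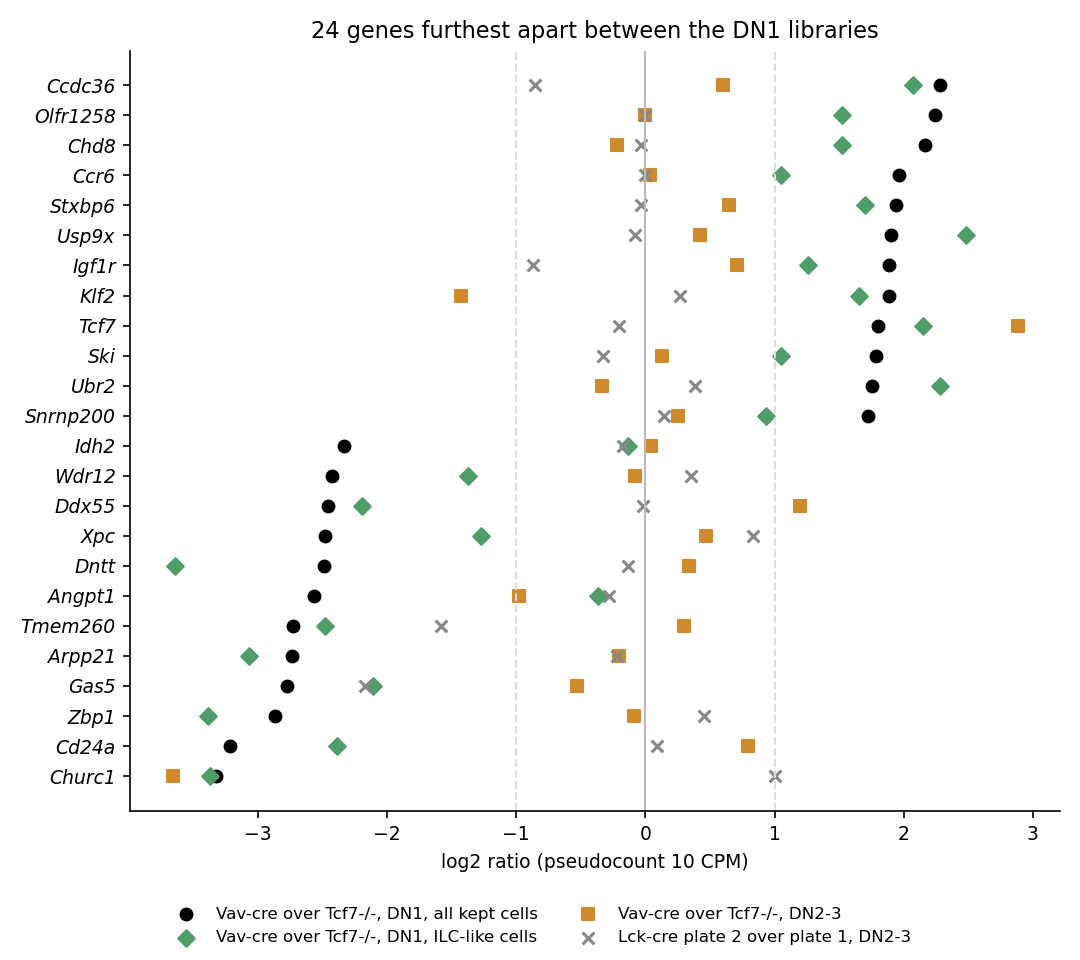
Log2 ratios of the 24 named genes between the DN1 libraries (circles), within ILC-like cells (diamonds), in the DN2-3 gate (squares) and between the Lck-cre plates (crosses); dashed lines mark 2-fold. Tcf7 and Churc1 lie past 2-fold in the same direction in both gates, while Klf2 lies at 1.89 in DN1 and -1.43 in DN2-3.

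Churc1 was low in both Vav-cre libraries and in none of the other 6. It reached 1.29 CPM in the DN1 and 3.65 CPM in the DN2-3 library of Vav-cre, and between 64.1 and 163 CPM in the other 6 libraries. With 1 library of each gate, whether this goes with the genotype, the mice or the plates cannot be told apart.

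Gene length went along with the direction of the difference. Over 4415 genes of at least 50 CPM with a known length, the log2 ratio and the length had a Spearman correlation of 0.20. In 5 bins from the shortest to the longest genes the median log2 ratio was -0.09, -0.07, 0.08, 0.18 and 0.35, so long genes were read as higher in Vav-cre. The correlation was 0.15 in the DN2-3 gate and 0.05 between the Lck-cre plates. The 12 named higher genes had a median length of 6133.5 bases and the 12 lower ones of 3888 bases. Length and the label difference of the Tcf7-/- plates move together with these genes, and their part in the result was not tested.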

How the data were processed

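Per the submitters' processing notes, alignment used TopHat2 2.1.1, counting used HTSeq, and the genome was mm10. The labels' protocols name both a modified STRT and a Smart-seq2 method, and collapsing of molecular identifiers is not given in the sources used here. The authors deposited whole-number counts per gene and cell, without normalization, and a table of log2 values, log2(TPM/10 + 1), which was used only as an alternative.

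Counts were summed over kept cells of each library and scaled to CPM with Python 3.11.15, numpy 2.4.6 and scipy 1.17.1. Cells were clustered with scanpy 1.11.5 (2000 variable genes, 15 components, 15 neighbours, Leiden resolution 1), without Tcf7, cell-cycle, Xist and Y-linked genes, and clusters were named from at least 3 raised markers. No doublet caller was run on these singly sorted cells. Gene positions are those of GENCODE for mm10. Named genes had at least 50 CPM in either library, and unnamed gene models, Xist, Y-linked and ribosomal protein genes were left out; 10 in each direction were taken within ILC-like cells. The scripts were tested on simulated data.

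The members, lists and rules were chosen with earlier results of these data known. A further gene is not reported here.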

Additional observations from a re-analysis of the deposited data

How the results depend on the processing

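No paired analysis was possible because each group is 1 library and the results come from no test; the barcode numbers shared between plates name wells and not animals. The count of higher genes (1239 of 8996) was 178 with a pseudocount of 50 CPM, 593 of 4445 when measured at 50 CPM and 575 of 7568 without the top cell of each gene. The count of lower genes (1040 of 8996) was 1585 with a pseudocount of 1 CPM, 122 with 50 CPM and 390 of 4445 when measured at 50 CPM. Without the top cells 1334 genes were lower, so the share of higher genes among those apart was 30.1% in place of 54.4%. For each gene this setting takes 1 of 58 Vav-cre and 1 of 96 Tcf7-/- cells. The median of all genes was then -0.20 in place of 0.05, so list medians without the top cells stand beside -0.20 and not 0. The DN3 and DP stage median (-0.93) was -1.44 and -0.34 with pseudocounts of 1 and 50 CPM, -1.35 when measured at 50 CPM, -1.34 with cells weighted equally and -1.30 with cells thinned. It was -0.16 with counts of 1 to 5 set to 0, -1.46 both without the top cells and from the deposited log2 values, and -0.31 or -0.28 with same-number counts taken off at the Xist or Klra9 share. The MHC class II median (1.26) was 1.78 when measured at 50 CPM, 1.56 in cells with at least 2000 genes and reversed to -0.052 without the 6 cells. Other list medians also reversed: gamma-delta T genes to -0.082 with no filter beyond 1 count and -0.088 when thinned, Wnt and TCF/LEF genes to -0.036 with no such filter and -0.36 without the top cells, and S phase genes to 0.082 in cells with at least 2000 genes and 0.0092 with counts of 1 to 5 set to 0. Medians near 0 changed sign as well: early progenitor genes (0.16) to -0.67 without the top cells, erythroid and mast genes (0.13) to -2.39 when measured at 50 CPM, B cell genes (-0.10) to 0.80 when thinned and thymic stroma genes (0.10) to -0.17 without the top cells. Within ILC-like cells the higher genes (1576) numbered 927 without the top cells. NK-like cells were 10.4% of Tcf7-/- DN1 and 8.62% of Vav-cre DN1 at Leiden resolution 2, and early progenitor-like cells 41.7% at resolution 0.5. The genes apart between the Lck-cre plates (431) numbered 874 when thinned and 100 when measured at 50 CPM. Of 24 named genes all stayed at least 2-fold apart in the same direction under the settings tried, except Ccdc36 with a pseudocount of 50 CPM and Olfr1258 in cells with at least 2000 genes. The cause of these shifts was not tested. The settings that take off same-number counts or leave out the 6 cells or the top G2 and M phase cell were chosen after seeing the data. They fix the direction of the shift in the lists they were chosen for. Low depth limits Vav-cre DN1 most.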
